A study of Mus musculus with 8 samples.

Results

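The integrated stress response was followed through 45 genes that are commonly counted among ATF4 and its targets, or among the endoplasmic reticulum (ER) stress factors and outputs that run beside it. The genes were listed by name from their known roles, at a time when earlier results of these data were known, and 45 of the 18877 gene symbols of the deposited table are described here, grouped by role into regulators, brakes and effectors, secreted factors, amino acid and folate enzymes, amino acid transporters, cytosolic tRNA synthetases and ER outputs. RNA of activated muscle stem cells (ASCs) had been sequenced, the stem cells of skeletal muscle after they have left quiescence, in 4 wild-type and 4 mfn2-/- libraries. All mice carried a mito-Dendra2 allele, a fluorescent protein sent to mitochondria, under the Pax7-CreERT2 driver and had received tamoxifen at 75 mg/kg daily for 5 days, and the mfn2-/- group carried in addition a conditional Mfn2 allele removed by the same driver. The tibialis anterior muscle was injured with barium chloride, and living Dendra2+ CD34- cells were sorted 2 days after injury. Mouse age, the number of mice per library and whether mice were pooled are not given in the sources used here, so p-values measure the spread between these libraries, which may in part be technical.

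In the integrated stress response, kinases that sense ER stress, amino acid shortage, heme shortage, viral RNA or mitochondrial stress phosphorylate the translation factor eIF2. General protein synthesis then slows while the mRNA of the transcription factor ATF4 is translated better, and ATF4, often paired with a C/EBP protein, activates genes of amino acid synthesis and uptake, tRNA charging, redox balance and the feedback that restores eIF2. Since control of ATF4 lies largely in translation, transcript levels of its targets, and not Atf4 mRNA alone, are what RNA sequencing can show of this pathway.

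ATF4 and C/EBP partners bind a composite DNA element whose core reads TGATGNAA, and both strands of the 250 bases before each start site were searched for it. Of the 45 genes, 35 matched the promoter table of RefSeq (GRCm38.p6), and 11 of these 35 genes (31.4%) held the core, against 2.42% of the 8263 tested genes with a window and 3.45% of all 32851 windows. Since the list was assembled from genes linked to ATF4, this share describes the list and is no independent result. The core was present in 2 of the 6 matched genes that were called higher in mfn2-/- ASCs (33.3%) and in 9 of the other 29 (31.0%). The 4 stretches with the core shown first belong to genes that rose, that fell, or that lay higher in all mfn2-/- libraries without passing the test, and the core, here as TTGCATCA or its reverse complement, is in capitals. They are Aars (chr8:111033694-111033773, plus strand), Herpud1 (chr8:94386281-94386360, plus strand), Chac1 (chr2:119351013-119351092, plus strand) and Pycr1 (chr11:120643808-120643887, minus strand). Capitals of Hspa5 (chr2:34771989-34772079, plus strand) mark the ER stress response element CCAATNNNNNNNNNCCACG, bound by NF-Y together with ATF6 or XBP1, which 1 of the 35 genes and 0.113% of all windows held.
Aars: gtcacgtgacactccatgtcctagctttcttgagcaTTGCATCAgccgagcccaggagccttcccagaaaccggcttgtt
Herpud1: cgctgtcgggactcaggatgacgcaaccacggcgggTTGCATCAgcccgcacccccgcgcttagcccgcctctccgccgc
Chac1: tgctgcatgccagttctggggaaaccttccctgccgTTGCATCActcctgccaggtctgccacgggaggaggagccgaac
Pycr1: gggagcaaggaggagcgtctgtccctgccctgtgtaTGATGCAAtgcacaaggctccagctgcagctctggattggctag
Hspa5: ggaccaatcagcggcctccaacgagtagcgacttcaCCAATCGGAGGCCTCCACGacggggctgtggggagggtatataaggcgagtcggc

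All 5 stretches are written 5′ to 3′ along the gene's own strand. The core began 112 bases before the start site in both Aars and Herpud1, 103 bases before it in Pycr1 and 193 bases before it in Chac1, and the ER element of Hspa5 began 65 bases before the start. Aars, Herpud1 and Chac1 showed the same 8 letters in the same orientation, and Pycr1 showed their reverse complement. The other genes with the core were Asns, Fgf21, Gars, Nupr1, Slc7a11, Tars and Vldlr, and Slc7a11 held it at 2 places. Atf6, Eif4ebp1, Cth, Slc7a5, Slc7a3, Nars, Wars, Mars, Cars and Lars had no entry in the promoter table.

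Depth lay between 1880464 reads (wild-type replicate 1) and 7508215 reads (wild-type replicate 4), and mfn2-/- replicate 4 was the second shallowest with 2269009. Values are normalized reads, for which 1 read was worth 0.534 to 2.27 units. Changes are differences of log2(value + 1), mfn2-/- minus wild-type, which for weak genes depend on the pseudocount and can lie below or, where libraries are at or near 0, above the fold of the means, and a gene was called at a limma adjusted p under 0.05 over the 11754 genes with a mean of at least 10. Mfn2 itself lay between 202 and 245 in wild-type and between 104 and 172 in mfn2-/- libraries, a log2 change of -0.88 (SE 0.30, adjusted p = 0.0848 by limma and p = 0.0286 by exact permutation). In single-gene comparisons the 2-sided exact permutation test of 4 against 4 libraries cannot give a p below 0.0286. Markers of some other cell types moved with genotype: 9 of 11 fibroadipogenic genes were called lower, with a summed level of 200266 to 259868 in wild-type and 6377 to 10599 in mfn2-/- libraries, and 10 of 10 tenocyte genes were lower (40809 to 65595 against 306 to 435). Of 5 mural genes 2 were called lower (summed level 2095 to 3119 against 845 to 1225), and of 7 myofiber genes 2 were called higher (894 to 1931 against 2221 to 3350). Of 5 tested macrophage genes and 5 tested endothelial genes 0 were called, and 0 neutrophil genes were high enough to be tested. Of 9 myogenic genes, 3 (Myod1, Des and Sdc4) were called higher, and Pax7 had a log2 change of 0.10. In bulk RNA, fewer cells of a type and less RNA per cell cannot be told apart, and the part of these markers in the results was not tested. The libraries also differed in reads from Y-linked genes, which were at 807 to 2336 in replicates 3 and 4 of wild-type and 1 and 2 of mfn2-/- and at 0 in the others, and in each group this difference coincides with the replicate pair, so the 2 cannot be told apart.

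Of the 45 genes, 43 were tested, and Fgf21 and Slc7a3 were too low. In mfn2-/- ASCs 7 genes rose, namely the transcription factors Atf4, Cebpb and Xbp1, the tRNA synthetases Aars and Nars, the ER chaperone gene Hspa5 and the ER degradation gene Herpud1. The share is 16.3%, and 3.99% of all genes tested were called higher. The proline enzyme Pycr1 fell, which is 1 of 43 (2.33%) where 6.36% of all genes were called lower. The median log2 change of the 43 genes was 0.51, with 29 above and 14 below 0, while the median of all genes tested was -0.16. Both edgeR and DESeq2 on the recovered reads called the same 7 genes higher and the same 1 lower. Over all genes tested, edgeR called 501 higher and 657 lower, and DESeq2 called 648 and 1090. Among the 43 genes, limma without its intensity trend called 0 higher and 1 lower, and with library weights 11 higher and 7 lower. Counts over all genes for these limma settings are not given here, so their member counts stand without a background share. For 8 genes no mfn2-/- library lay as low as any wild-type library (18.6%; 7.36% of all genes) and for 2 genes none lay as high (4.65%; 12.2% of all genes). With the library totals set equal after the fibroadipogenic and tenocyte genes were left out, the counts were again 7 and 1 and the median was 0.46. That setting changes only the scaling, and any RNA of those cell types stays in the values of the 43 genes.

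**Figure D1:**
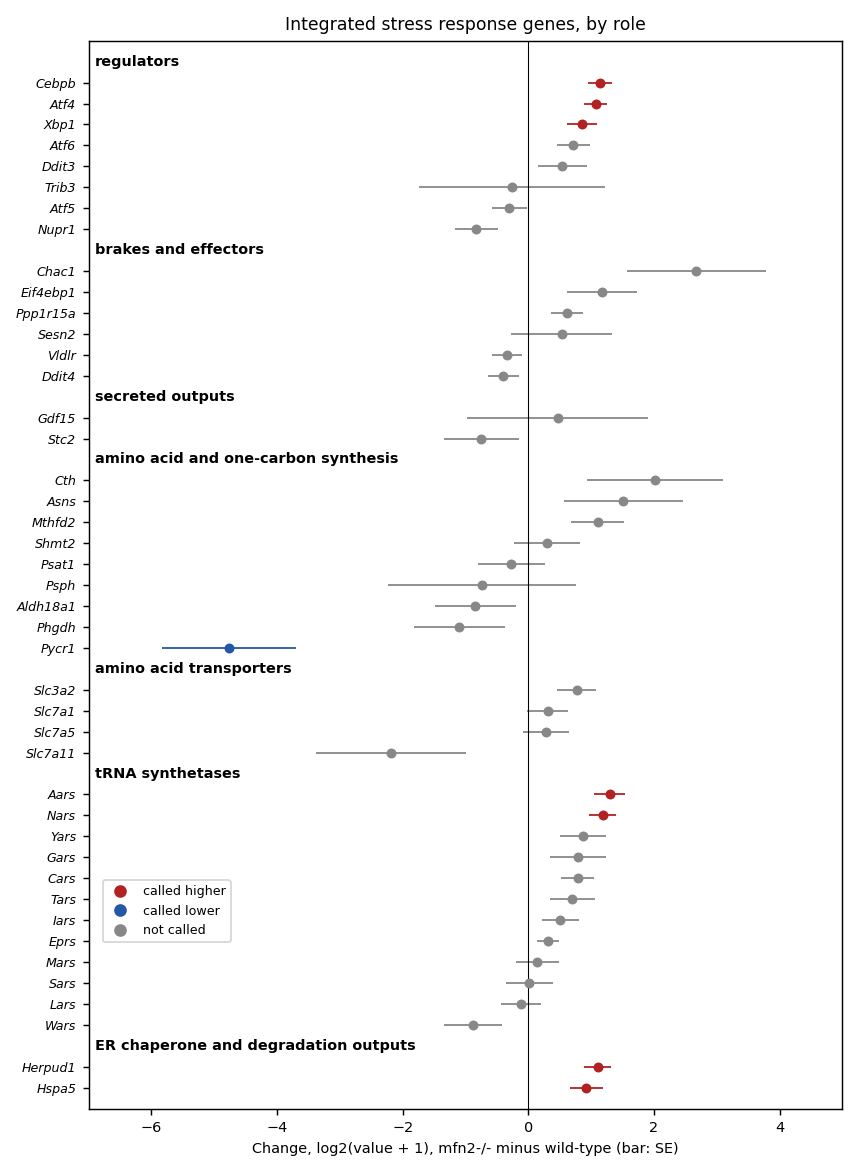
Change of each tested gene in mfn2-/- against wild-type ASCs, as the difference of mean log2(value + 1) with its standard error (bars), sorted within role. Red points are the 7 genes called higher, the blue point is Pycr1, called lower at -4.77, and grey points are not called. Calls are spread over the regulators, the tRNA synthetases and the ER outputs, and the brakes, secreted factors and transporters hold none.

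Of the 8 regulators, 3 rose, 0 fell and 5 were not called. Atf4, the transcription factor at the centre of the pathway, had 1528, 1349, 1212 and 1313 normalized reads in wild-type replicates 1 to 4 and 3546, 3042, 2609 and 2298 in mfn2-/- replicates 1 to 4. Every mfn2-/- library lay above every wild-type library, and the gap between the groups was wider than the range within wild-type. The means were 1351 ± 132 and 2874 ± 542 (SD, n = 4 each), 2.13-fold apart, with a log2 change of 1.07 (SE 0.18, adjusted p = 0.0023 by limma and p = 0.0286 by exact permutation). Cebpb encodes a basic leucine zipper partner of ATF4 that is itself an early gene of injured tissue. Its values were 1259.9, 1481, 893 and 924 in wild-type and 2690.4, 2598, 2383 and 2188 in mfn2-/- libraries. The groups did not overlap, and the wild-type libraries split into a higher pair, replicates 1 and 2, and a lower pair. The log2 change was 1.14 (SE 0.20, adjusted p = 0.00267 by limma and p = 0.0286 by exact permutation), from 1139 ± 282 to 2465 ± 225.

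Xbp1 encodes the factor that is activated when IRE1 splices its mRNA, a step that gene-level reads do not resolve. It had 523, 402, 422 and 341 normalized reads in wild-type against 826, 945, 799.5 and 519 in mfn2-/- libraries, so that mfn2-/- replicate 4 lay just under wild-type replicate 1 and the groups touched. The log2 change was 0.85 (SE 0.23, adjusted p = 0.0348 by limma and p = 0.0571 by exact permutation), from 422 ± 75.7 to 772 ± 181. This call was the weakest of the regulators and was lost when any of the wild-type replicates 2, 3 and 4 or the mfn2-/- replicates 1, 2 and 3 was left out.

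The other regulators did not pass the test. Atf6, the ER membrane sensor that becomes a transcription factor after cleavage, had a log2 change of 0.72 (limma adjusted p = 0.109). Ddit3, which encodes the death-linked factor CHOP, had 105, 105, 71.0 and 122 reads in wild-type and 221, 149, 112 and 117 in mfn2-/- libraries (log2 change 0.54, limma adjusted p = 0.419). The groups overlapped, with only mfn2-/- replicates 1 and 2 above the wild-type range. Atf5, a relative of ATF4 that acts in the mitochondrial stress response, had 1046 and 922 reads in wild-type replicates 1 and 2 and 465 and 447 in replicates 3 and 4, and all mfn2-/- libraries lay inside that range at 516 to 579. Nupr1, a small chromatin protein induced by stress, was lower in every mfn2-/- library (73.3 to 145) than in any wild-type library (164 to 248) but was not called (log2 change -0.83, SE 0.34, adjusted p = 0.152 by limma). Trib3, a pseudokinase that restrains ATF4, was weak and uneven, at 0 to 59.1 in wild-type and 0 to 25.8 in mfn2-/- libraries.

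**Figure D2:**
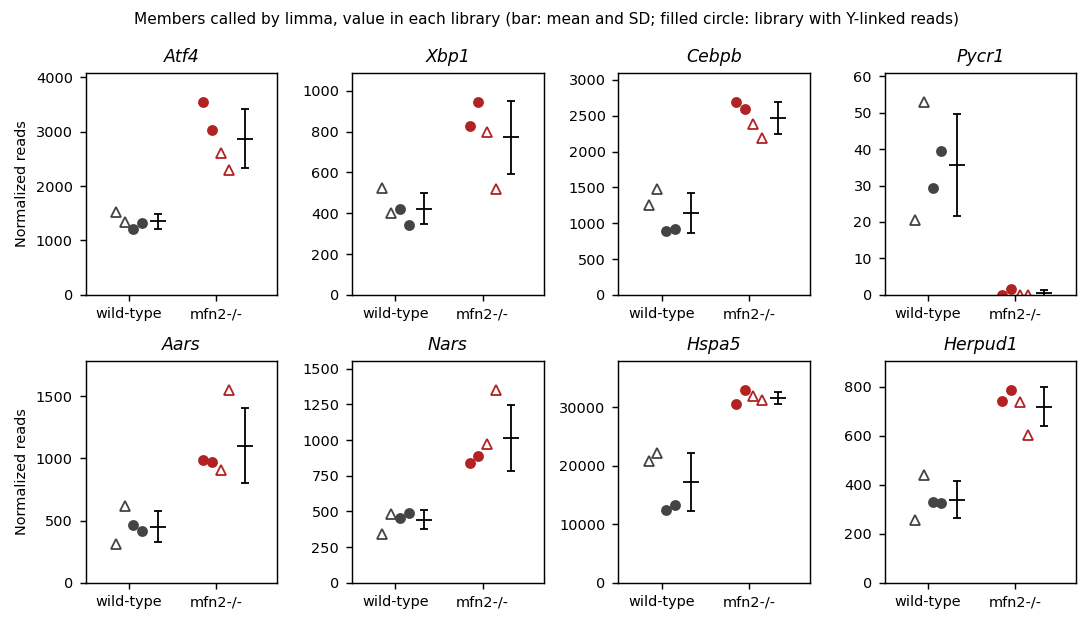
Normalized reads of the 8 called genes in each library (y axis, linear from 0). Filled circles are libraries with Y-linked reads, open triangles libraries without, and the bars give the mean and SD of 4 libraries. The groups do not overlap for 7 of the 8 genes, and for Xbp1 mfn2-/- replicate 4 (519) lies under wild-type replicate 1 (523).

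Among the brakes and effectors, 0 of 6 tested genes were called by limma, by edgeR or by DESeq2, and 2 were higher at an unadjusted p under 0.05. At that unadjusted threshold 10.4% of all genes tested were higher and 14.4% lower. Ppp1r15a, also known as GADD34, is the stress-induced subunit that directs a phosphatase to eIF2 and so ends the response. It had 5015, 5847, 4567 and 3900.3 normalized reads in wild-type against 10869, 9218, 5341 and 5474 in mfn2-/- libraries. Only mfn2-/- replicates 1 and 2 exceeded the wild-type range, and replicates 3 and 4 lay within it. The log2 change was 0.62 (SE 0.25, adjusted p = 0.145 by limma and p = 0.114 by exact permutation), from 4832 ± 817 to 7726 ± 2761. Ddit4, also known as REDD1, an inhibitor of mTORC1 that also responds to hypoxia and glucocorticoids, had 723, 689.6, 1096 and 849 reads in wild-type and 544, 444, 713 and 883 in mfn2-/- libraries. Those ranges overlapped, and the log2 change was -0.40 (SE 0.25, adjusted p = 0.343 by limma and p = 0.229 by exact permutation), from 839 ± 184 to 646 ± 193.

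Chac1, which degrades glutathione and is among the most ATF4-dependent genes, stood apart from the other effectors. It had 0, 17.6, 31.0 and 15.0 normalized reads in wild-type (0 to 38 reads as sequenced) and 60.0, 50.6, 73.7 and 66.0 in mfn2-/- libraries (36 to 100 reads). Every mfn2-/- library was above every wild-type library, 3.93-fold in the means, but the wide spread on the log scale at these counts gave a log2 change of 2.67 with an SE of 1.11 (adjusted p = 0.151 by limma and p = 0.0286 by exact permutation). The log2 change was 1.31 in libraries with Y-linked reads and 4.03 in those without. Among the latter, wild-type replicate 1, the shallowest library, had 0 reads of Chac1. Eif4ebp1, a translation inhibitor that binds eIF4E, had a log2 change of 1.17 (limma adjusted p = 0.218). Sesn2, a leucine sensor upstream of mTORC1, had a log2 change of 0.53 (limma adjusted p = 0.731), and Vldlr, a lipoprotein receptor, of -0.34 (limma adjusted p = 0.424).

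The secreted factors, hormones by which stressed muscle can signal to other tissues, were low. Of 3 genes 2 were tested and 0 were called by limma, edgeR or DESeq2, and 0 passed at an unadjusted p under 0.05. Gdf15 had 45.5, 1.04, 4.08 and 2.14 normalized reads in wild-type against 20.7, 32.4, 6.63 and 0 in mfn2-/- libraries, from 0 to 41 reads as sequenced. The highest library was a wild-type library, and the log2 change of 0.47 had an SE of 1.44 (limma adjusted p = 0.871, exact permutation p = 0.771), with means of 13.2 ± 21.6 and 14.9 ± 14.5. Stc2, stanniocalcin 2, had 36.4, 114, 105 and 102 in wild-type and 46.0, 35.6, 37.6 and 88.0 in mfn2-/- libraries. Its log2 change was -0.75 (SE 0.59, adjusted p = 0.473 by limma and p = 0.171 by exact permutation), from 89.5 ± 35.7 to 51.8 ± 24.5. Fgf21 had 1 read in mfn2-/- replicate 2 and 0 in the other libraries, so at this depth no difference could be detected.

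The enzymes of amino acid and folate metabolism split in direction, with 1 of 9 called. Pycr1, the mitochondrial enzyme of the last step of proline synthesis, had 20.5, 52.9, 29.4 and 39.5 normalized reads in wild-type (9 to 74 reads as sequenced) and 0, 1.58, 0 and 0 in mfn2-/- libraries (0, 2, 0 and 0 reads). All mfn2-/- libraries were at or under the floor of 3 reads and all wild-type libraries above it. Against the mean of that floor over the mfn2-/- libraries, 3.02 normalized reads, the mean level was at least 11.8-fold lower, from 35.6 ± 13.9. The fitted log2 change of -4.77 (SE 1.07, adjusted p = 0.0128 by limma and p = 0.0286 by exact permutation) depends on the pseudocount at such counts and is no bound. Proline synthesis supplies collagen, and the fibroadipogenic and tenocyte genes, among them Col1a1 and Col1a2, fell with it, and their part in the value of Pycr1 was not tested.

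Mthfd2, the mitochondrial folate enzyme that is a widely used marker of ATF4 in mitochondrial stress, had 70.5, 107, 193 and 107 normalized reads in wild-type against 151, 164, 305 and 445 in mfn2-/- libraries. The means differed 2.23-fold, 119 ± 51.9 against 266 ± 138, but wild-type replicate 3 lay above mfn2-/- replicates 1 and 2 (log2 change 1.10, SE 0.43, adjusted p = 0.126 by limma and p = 0.0857 by exact permutation). Shmt2, the serine hydroxymethyltransferase that acts before it, had 107, 118, 169.9 and 93.5 in wild-type and 71.3, 73.5, 248 and 357 in mfn2-/- libraries. Here mfn2-/- replicates 1 and 2 lay below all wild-type libraries and replicates 3 and 4 above all of them, and the log2 change of 0.30 (SE 0.53, adjusted p = 0.768 by limma and p = 0.629 by exact permutation) averaged over that split.

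Of the serine enzymes, Psat1 showed the same split and Phgdh only its lower side. Phgdh, the first enzyme of serine synthesis, had 216, 168, 105 and 118 normalized reads in the wild-type libraries, but 23.3 and 22.1 in mfn2-/- replicates 1 and 2, and stood at 229.9 and 169 in mfn2-/- replicates 3 and 4. Psat1, the aminotransferase of the next step, lay at 97.8 to 143 in wild-type, at 42.0 and 58.5 in mfn2-/- replicates 1 and 2 and at 202 and 189 in replicates 3 and 4. Asns, asparagine synthetase, lay at 11.4 to 23.0 in wild-type and at 52.0, 8.69, 102 and 82.5 in mfn2-/- replicates 1 to 4. Neither Phgdh (log2 change -1.10, limma adjusted p = 0.385) nor Psat1 (-0.27, limma adjusted p = 0.798) nor Asns (1.51, limma adjusted p = 0.358) was called. For Cth, which makes cysteine, the log2 change was 2.02 (limma adjusted p = 0.273). Aldh18a1, which acts before Pycr1 in proline synthesis, had a log2 change of -0.85 (limma adjusted p = 0.456). Psph, the last serine enzyme, with 0 to 86 reads as sequenced, had one of -0.74 (SE 1.49, limma adjusted p = 0.801).

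Among the amino acid transporters 0 of 4 tested genes were called by limma, edgeR or DESeq2, and 1 was higher at an unadjusted p under 0.05. Slc3a2, the heavy chain shared by several heterodimeric transporters, had 885, 888, 469 and 364 normalized reads in wild-type against 913, 871, 913 and 1556 in mfn2-/- libraries. The wild-type libraries fell into a high and a low pair, the high pair matched mfn2-/- replicates 1 to 3, and mfn2-/- replicate 4 was the highest. The log2 change was 0.77 (SE 0.31, adjusted p = 0.136 by limma and p = 0.0857 by exact permutation), from 651 ± 275 to 1063 ± 329. Slc7a1, a carrier of cationic amino acids, had 584, 217, 384 and 329 in wild-type and 349, 313, 542 and 639.5 in mfn2-/- libraries (log2 change 0.31, SE 0.32, adjusted p = 0.597 by limma and p = 0.543 by exact permutation). Slc7a5, the leucine carrier that pairs with the Slc3a2 product, had a log2 change of 0.28 (limma adjusted p = 0.689). The cystine carrier Slc7a11, with 0 to 79 reads as sequenced, had one of -2.19 (SE 1.20, limma adjusted p = 0.283). Slc7a3 had 10 and 8 reads in mfn2-/- replicates 2 and 3 and 0 in the other libraries and was not tested.

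Cytosolic tRNA synthetases, which charge tRNAs with amino acids, rose in 2 of 12 cases, and 10 of the 12 had a positive log2 change, with a median of 0.61. Aars, the alanyl-tRNA synthetase, had 314, 615, 465.5 and 413 normalized reads in wild-type against 985, 971, 907 and 1550.3 in mfn2-/- libraries. All mfn2-/- libraries were above all wild-type libraries, and replicate 4 stood above the other mfn2-/- libraries. The means of 452 ± 126 and 1103 ± 299.9 were 2.44-fold apart (log2 change 1.29, SE 0.25, adjusted p = 0.00519 by limma and p = 0.0286 by exact permutation). Nars, the asparaginyl-tRNA synthetase, had 341, 485, 456.5 and 488 in wild-type and 839, 888, 975 and 1351 in mfn2-/- libraries. Those groups did not overlap either, and the log2 change was 1.18 (SE 0.22, adjusted p = 0.00381 by limma and p = 0.0286 by exact permutation), from 443 ± 69.2 to 1013 ± 232. Eprs, the glutamyl-prolyl enzyme and the gene of the 12 with the most normalized reads before correction for its long exons, had 1048, 1115, 970.2 and 1137 in wild-type and 1311.5, 1135, 1611 and 1272 in mfn2-/- libraries. It was not called, with a log2 change of 0.31 (SE 0.18, adjusted p = 0.300 by limma and p = 0.0571 by exact permutation), and mfn2-/- replicate 2 lay just below wild-type replicate 4.

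Of the other synthetases, Cars (cysteine) lay at 170.4 to 332 in wild-type and at 381 to 448 in mfn2-/- libraries, with no overlap and a log2 change of 0.78 (limma adjusted p = 0.0726). Gars (glycine) lay at 259 to 392 in wild-type, at 297 and 249 in mfn2-/- replicates 1 and 2 and at 937 and 1219 in replicates 3 and 4 (log2 change 0.79, limma adjusted p = 0.300). Its mfn2-/- values thus lay in or below the wild-type range in one pair and far above it in the other. The log2 changes of Yars, Tars, Iars, Mars and Sars ran from 0.87 to 0.02, and those of Lars and Wars were -0.11 and -0.88. None of these 7 was called, and the smallest limma adjusted p was 0.163, for Yars.

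Both ER outputs rose. Hspa5 encodes BiP, the major chaperone of the ER, and had 20832, 22203, 12491 and 13354 normalized reads in wild-type against 30541, 32910.3, 31915 and 31143 in mfn2-/- libraries. The 4 mfn2-/- libraries lay close together above all wild-type libraries, and the wild-type libraries formed a higher and a lower pair. The log2 change was 0.92 (SE 0.26, adjusted p = 0.0371 by limma and p = 0.0286 by exact permutation), 1.84-fold in the means. The call was lost without wild-type replicate 3 (limma adjusted p = 0.155), without wild-type replicate 4, and without any of mfn2-/- replicates 1, 2 and 3. Herpud1, an ER membrane protein that serves the degradation of misfolded proteins, had 257, 441, 329 and 327 in wild-type and 743, 786, 738 and 603 in mfn2-/- libraries. Its groups were clearly apart, at 338 ± 76.0 and 718 ± 79.5, with a log2 change of 1.10 (SE 0.22, adjusted p = 0.0067 by limma and p = 0.0286 by exact permutation).

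**Figure D3:**
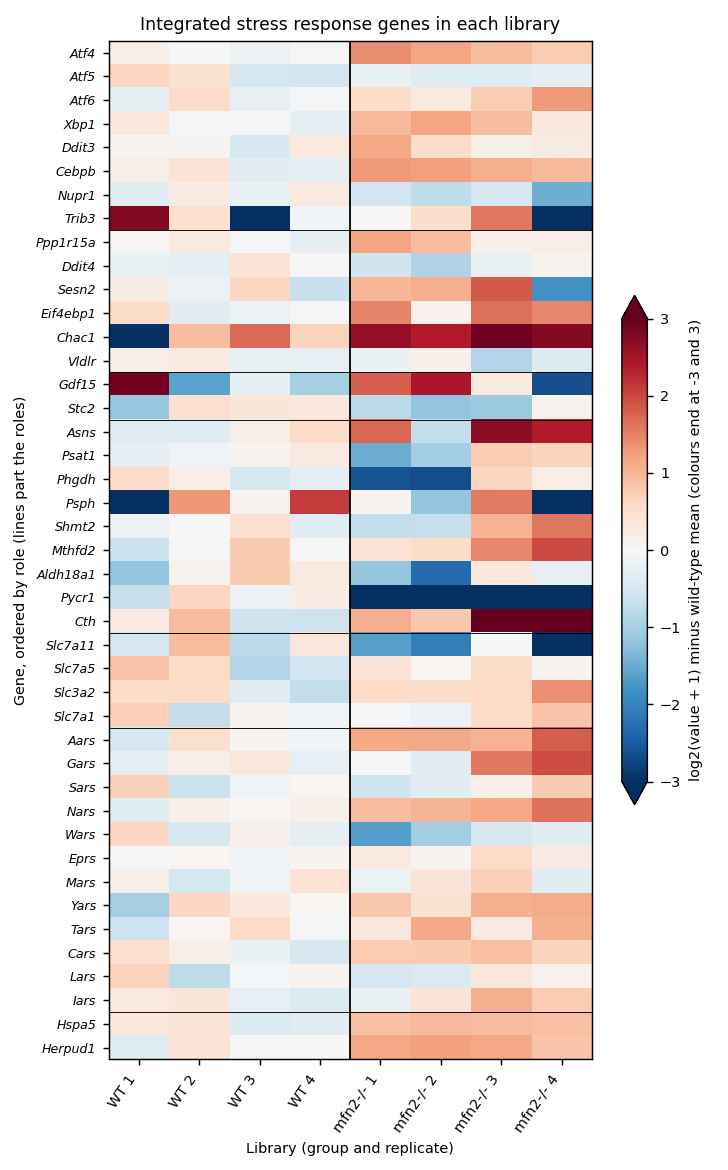
Each tested gene in each library, as log2(value + 1) minus the wild-type mean of that gene, with colours that end at -3 and 3 and lines that part the roles. The 4 mfn2-/- columns are red for Atf4, Cebpb, Aars, Nars, Hspa5 and Herpud1 alike, whereas Phgdh and Psat1 are blue in mfn2-/- replicates 1 and 2 and red or near white in replicates 3 and 4.

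Levels per kilobase were taken over the union of all annotated exons of a gene, which can be longer than its mRNA. They therefore compare different genes only roughly. On that scale Hspa5 was the most abundant of the 45 genes, at 4072 normalized reads per kilobase in wild-type and 7479 in mfn2-/- ASCs. Ppp1r15a followed at 1645 in wild-type and Cebpb at 757.5, and Atf4 had 573. In mfn2-/- ASCs the levels per kilobase were 2630.4 for Ppp1r15a, 1639 for Cebpb and 1219 for Atf4. The called synthetases lay far below, at 48.7 for Aars and 102 for Nars in wild-type libraries. Some of these orders depend on the exon length used. Before division by it, the wild-type means were 1351 for Atf4 and 1139 for Cebpb, and 452 for Aars and 443 for Nars.

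Because the libraries with and without Y-linked reads split every group, the change was also taken within each kind, 2 libraries against 2. The median of the 43 genes was 0.43 in libraries with Y-linked reads and 0.45 in those without. The 7 genes that rose were positive in both kinds. In libraries with and without Y-linked reads respectively, the log2 change was 1.38 and 0.77 for Atf4, 1.54 and 0.74 for Cebpb, 1.22 and 0.49 for Xbp1, 1.16 and 1.43 for Aars, 0.87 and 1.49 for Nars, 1.30 and 0.55 for Hspa5 and 1.22 and 0.99 for Herpud1. Among the roles the gap between the kinds varied. Amino acid and folate enzymes had a median of -1.44 with and 0.90 without Y-linked reads, brakes and effectors had 0.98 and 0.08, regulators 1.09 and 0.31, ER outputs 1.26 and 0.77, transporters 0.43 and 0.01 and tRNA synthetases 0.32 and 0.52. The secreted factors, with only 2 weak genes tested, also changed sign, at 0.71 and -0.99.

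A limma interaction of genotype and kind, fitted over all genes after the data had been seen, was called for 3 of the 43 genes, and 1.47% of all genes tested were called. Ppp1r15a changed more in libraries with Y-linked reads (1.25 against -0.00 without them, interaction 1.25, limma adjusted p = 0.0115), and Hspa5 did so too (interaction 0.74, limma adjusted p = 0.0253). Gars showed the opposite order, at -0.24 and 1.82 (interaction -2.06, limma adjusted p = 0.0452). For Mthfd2, Phgdh and Psat1, whose mfn2-/- libraries also split by kind, the interaction was not called. Early-response genes, a list of 10 that are induced by stress and tissue dissociation, had a median log2 change of 0.97 in libraries with Y-linked reads and -0.50 in those without. Their summed level was 104732 to 142935 in wild-type and 101380 to 212367 in mfn2-/- libraries. For the genotype change over both kinds, 0 of 10 were called by limma (2 higher and 2 lower at an unadjusted p under 0.05, edgeR 1 higher, DESeq2 2 higher and 2 lower). The interaction, in contrast, was called for Fos, Fosb, Junb, Egr1, Atf3, Hspa1a, Hspa1b and Dusp1 (limma adjusted p from 0.00112 to 0.0136). It was not called for Jun and Ier2 (limma adjusted p = 0.404 and 0.276). The part of the early-response genes in the values of Ppp1r15a, Cebpb and Atf4 was not tested.

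**Figure D4:**
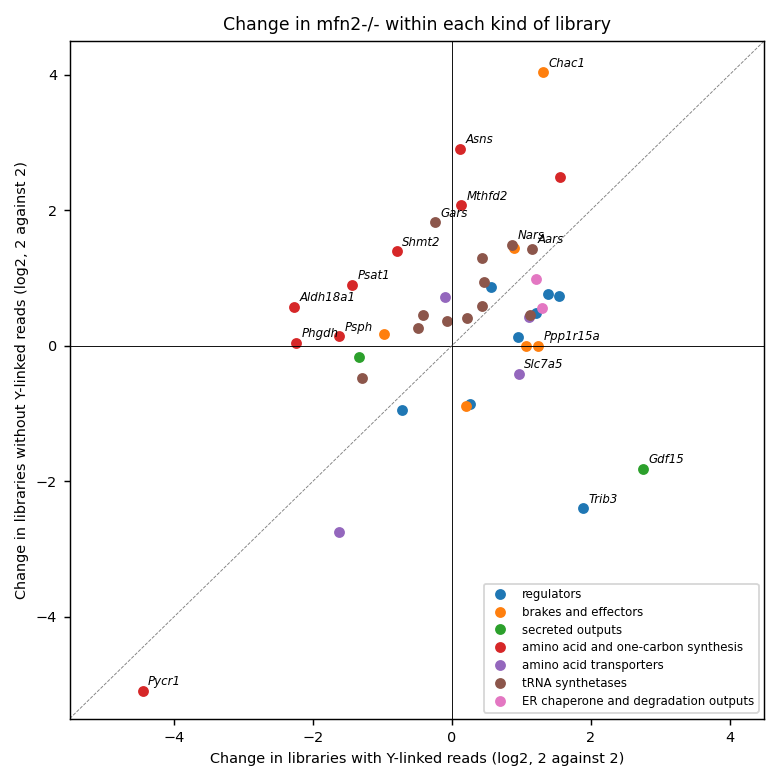
Log2 change of each tested gene in libraries with Y-linked reads (x axis) against that in libraries without (y axis), each from 2 mfn2-/- and 2 wild-type libraries, with points coloured by role and a dashed line of equal change. Aars and Nars lie near the line in the upper right, Pycr1 at the lower left (-4.45 and -5.09), and Psat1 (-1.44 and 0.90) and Shmt2 (-0.79 and 1.40) in the upper left.

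Genes around the list were taken from 5 further lists of 88 tested genes in all, with a median log2 change of 0.32. Of these, 9 were called higher (10.2%) and 1 lower (1.14%), where 3.99% of all genes tested were called higher and 6.36% lower. Among 18 genes of the eIF2 kinases, eIF2, its exchange factor eIF2B and upstream sensors, 1 rose (5.56%, near the share of all genes). That gene, Ppp1r15b, encodes the constitutive counterpart of Ppp1r15a and rose from a mean of 860.3 ± 257 to 1582 ± 73.6 (log2 change 0.92, SE 0.21, adjusted p = 0.0125 by limma). Eif2ak3, named here after its values were seen, encodes PERK, the eIF2 kinase of the ER. It had 423, 338, 483 and 380 normalized reads in wild-type against 182, 138, 152 and 11.0 in mfn2-/- libraries, every one of which was below all wild-type libraries. The log2 change of -2.29 (SE 0.69) was not called (limma adjusted p = 0.0511), and without mfn2-/- replicate 4, the shallowest mfn2-/- library, it was -1.36 (SE 0.24, adjusted p = 0.00312 by limma). With another library left out the adjusted p ran from 0.0383 to 0.123, and with a term for Y-linked reads it was 0.0366 by limma. DESeq2 called it and edgeR did not (adjusted p = 0.0153 and 0.0827).

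Of 22 further ATF4-linked factors and targets, 6 rose (27.3%; 3.99% of all genes) and 1 fell (4.55%; 6.36% of all genes), with a median of 0.69. The 4 most abundant that rose were Sqstm1, the autophagy receptor p62 (log2 change 0.99, limma adjusted p = 0.0287), Slc38a2, a glutamine carrier induced by amino acid shortage (1748 ± 401 to 4076 ± 389, log2 change 1.24, limma adjusted p = 0.00129), Ndrg1 (log2 change 1.19, limma adjusted p = 0.00419) and Cebpg, a partner of ATF4 (log2 change 1.17, limma adjusted p = 0.0276). The change of Sqstm1 was 1.54 in libraries with Y-linked reads and 0.43 in those without, and its interaction was called (limma adjusted p = 0.0324). For Slc38a2, Ndrg1 and Cebpg the interaction was not called. The fall was that of Gpt2, a mitochondrial alanine aminotransferase, named after its values were seen, from 169.6 ± 68.5 to 35.8 ± 8.13 (log2 change -2.13, limma adjusted p = 0.019). Among 22 other outputs of ATF6 and XBP1 2 rose (9.09%; 3.99% of all genes), with a median of 0.41. At an unadjusted limma p under 0.05, 8 of the 22 were higher, and 10.4% of all genes tested were. The 2 called higher were Hsp90b1, the ER chaperone GRP94 (7818 ± 344 to 12422 ± 1131, log2 change 0.66, limma adjusted p = 0.0356), and Manf, a secreted ER stress protein (480.3 ± 103 to 1283 ± 643, log2 change 1.32, limma adjusted p = 0.0146).

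Synthetases outside the list gave other medians. Of 11 other cytosolic synthetases 0 were called by limma, edgeR or DESeq2 and 0 passed at an unadjusted p under 0.05, with a median log2 change of 0.15. Kars and Dars, the most abundant of them, had log2 changes of 0.18 and 0.28 (limma adjusted p = 0.808 and 0.680). Of 15 tested mitochondrial synthetases, likewise, 0 were called by any of the 3 tools and 1 was lower at an unadjusted p under 0.05, and the median was -0.44. Iars2 and Lars2 had log2 changes of 0.16 and -1.46 (limma adjusted p = 0.791 and 0.184). The difference between these lists and the 12 cytosolic synthetases above was not tested.

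**Figure D5:**
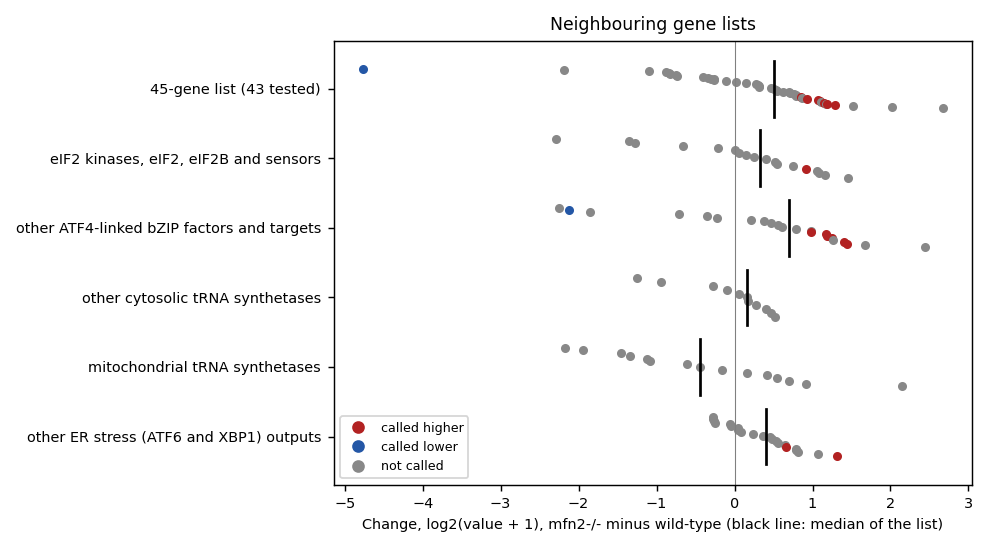
Log2 change of each tested gene of the 45-gene list and of the 5 further lists, with red for called higher, blue for called lower, grey for not called and a black line at the median of the list. Medians run from 0.69 for the other ATF4-linked genes and 0.51 for the 45-gene list to -0.44 for the mitochondrial synthetases.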

How the data were processed

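Libraries were made from total RNA with a stranded low-input kit. The submitters' processing notes name Trim Galore, HISAT2, featureCounts, DESeq2 and build mm9. Versions, annotation and strand setting are not given in the sources used here. The values deposited by the authors are a signal per gene, normalized reads on a linear scale, with 1 column per library and no coordinates. At a tolerance of 0.02, 100% of values were whole multiples of 1 step per column, so whole reads were recovered, and 0 columns were left unmapped. Without molecular identifiers, reads copied from the same molecule could not be told from reads of separate molecules. Values were transformed to log2(value + 1) and tested with limma 3.58.1 in R 4.3.3, using its trend option and no covariate, over genes with a mean of at least 10, with 2-sided Benjamini-Hochberg adjustment at 0.05, and single values were also compared by exact permutation over 70 arrangements. edgeR 4.0.16 and DESeq2 1.42.0 were run on the recovered reads. Values in full are given for called genes and the 2 most abundant of each role, and for Chac1, which was added after its values were seen. From further lists up to 4 called genes, or otherwise the 2 most abundant, are named. The members and lists were chosen with earlier results of these data known. Tests were also run on simulated counts with a log2 change of 2 in 200 genes. That change is larger than those of the genes called higher here, so changes of their size were not checked. Promoter sequences are those of RefSeq (GRCm38.p6), read by gene symbol. Reads of a gene and of an overlapping or antisense gene could not be told apart. Tables and figures were made in Python 3.11.15.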

Additional observations from a re-analysis of the deposited data

Results flagged for a closer look

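Each group of 4 libraries was examined for a library far from the other 3, in 86 groups of tested genes. In 5 of them the gap to the nearest library, divided by the range, passed the 95% critical value of Dixon, and chance alone gives about 1 in 20, or 4.3. Gdf15 stood at 45.5 normalized reads (20 reads) in wild-type replicate 1 where the other wild-type libraries had 1.04 to 4.08, and Stc2 at 36.4 in the same library against 102 to 114. Pycr1 stood at 1.58 (2 reads) in mfn2-/- replicate 2 against 0 in the other mfn2-/- libraries. With the others all at 0, any value above 0 gives a ratio of 1. Pycr1 is therefore counted among the 5 by construction. In mfn2-/- replicate 4, Slc3a2 stood at 1556 against 871 to 913 and Aars at 1550.3 against 907 to 985.

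The change with genotype differed between libraries with and without Y-linked reads by a limma interaction for Ppp1r15a (1.25), Hspa5 (0.74) and Gars (-2.06), called at limma adjusted p values of 0.0115, 0.0253 and 0.0452. In 5 further genes every mfn2-/- library of one kind moved one way and every mfn2-/- library of the other kind the opposite way: Atf5 (0.26 with and -0.86 without Y-linked reads), Vldlr (0.21 and -0.88), Psat1 (-1.44 and 0.90), Shmt2 (-0.79 and 1.40) and Slc7a5 (0.96 and -0.41). Their interactions were not called, with limma adjusted p from 0.117 to 0.22. The share of all genes tested with such opposite moves was not counted, so these 5 describe single genes and no trait of the list. Each kind holds 2 libraries against 2, and the kind of library cannot be told apart from the replicate pair.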

How the results depend on the processing

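The 7 genes called higher and Pycr1 were the same with equal totals, upper-quartile scaling, a pseudocount of 10, edgeR and DESeq2. Without the intensity trend 0 genes were called higher (12 at an unadjusted p under 0.05, and 7 by edgeR and by DESeq2, limma adjusted p of the 7 from 0.0542 to 0.146), and with library weights 11 were higher and 7 lower. The count of lower genes was 0 with a mean of at least 50, where Pycr1 is not tested, 0 at an adjusted p under 0.01 and 2 without the 2 shallowest libraries, a setting chosen after seeing the data. With each library left out in turn, 5 to 8 genes were called higher. Quantile normalization moved the median of all genes from -0.16 to 0.08 and that of the 43 genes from 0.51 to 0.65. Xbp1 lost its call in 9 of 23 settings and Hspa5 in 7, while Atf4, Cebpb, Aars, Nars and Herpud1 lost theirs only without the trend (limma adjusted p from 0.0542 to 0.0623). In the further lists the higher count of 9 became 2 without the trend, 20 with library weights and 3 at an adjusted p under 0.01, and 6 to 10 with a library left out. The lower count of 1 became 2 with a pseudocount of 10, quantile normalization, the replicate block, a term for Y-linked reads or DESeq2, 6 with library weights, 3 without the 2 shallowest libraries and 0 at an adjusted p under 0.01, and 0 to 2 with a library left out. Mfn2 was called with library weights (-0.87, limma adjusted p = 0.0099). Gdf15 turned to -0.024 with a pseudocount of 0.1 and ran from -0.18 to 1.5 with a library left out, and Shmt2 turned to -0.41 with library weights and -0.17 without the 2 shallowest libraries and ran from -0.12 to 0.65. Counts over all genes are given here only for the main fit, edgeR and DESeq2, so counts under the other settings stand without a background share. The causes were not tested beyond what these settings change by construction.

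Libraries of the same replicate number did not deviate together (correlations of -0.03, -0.05, 0.04 and -0.11). No pairing by number was seen, but with 4 libraries per group such values cannot exclude one. With the replicate block the counts were again 7 higher and 1 lower, for the same genes. With a term for Y-linked reads 9 were higher, Cars and Slc3a2 being added. Eif2ak3 was called with the block (limma adjusted p = 0.0314), and its limma adjusted p ran from 0.000656 with library weights to 0.173 without the trend. Low counts limit the precision of Chac1, Gdf15 and Pycr1, which had 0 to 100 reads per library. The same holds for Cth (3 to 70 reads), Slc7a11 (0 to 79), Psph (0 to 86) and Trib3 (0 to 35).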
